A study of Mus musculus with 15 samples.

Results

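The simple epithelial keratins Krt7, Krt8, Krt18 and Krt19 were described across oncogene-transformed mouse prostate epithelial lines and their primary control cultures. The members were the probe sets assigned to each of these genes alone. All 4 genes had 1 such probe set, and they are 4 of the 19938 genes measured. RNA of 15 whole-transcript arrays from FVB mice was measured in 5 groups of 3. Line groups carried c-myc (Myc), neuT (NeuT), ha-ras (Ras) or v-src (Src), and the control group held primary epithelial cultures of the ventral prostate with no transduced gene. The lines were stable and grew in DMEM with FBS. The controls were kept in a primary epithelial medium and moved to that medium the night before harvest, so medium and transformation cannot be told apart in comparisons with control. The series' design text gives 3 lines for each oncogene, but no label ties an array to a line, animal or culture, and p-values measure only the spread between these samples. The number of arrays limits the precision.

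Keratins are the intermediate filament proteins of epithelial cells, and each filament is built from pairs of a type I and a type II keratin. Krt8 and Krt7 are type II, and Krt18 and Krt19 are type I. Krt8 and Krt18 are the usual pair of one-layered epithelia and mark the luminal secretory cells of the prostate, while Krt5 and Krt14 mark its basal cells. Krt7 is found in ducts and glands, and Krt19 is a short type I keratin without the usual tail. Without its partner, a keratin protein is commonly unstable. In human cells the first intron of KRT18 holds AP-1 and Ets elements through which Ras signalling can raise transcription.

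Values are log2 expression as deposited. The median of all gene values was 6.47. Background was not measured here, and where a group lies under that value the size of a fold change is unsure. As for the introduced genes, Erbb2 averaged 9.50 ± 0.38 (SD, n = 3) for NeuT, against 7.80 ± 0.03 for control. The Myc probe set read 9.70 ± 0.29 for control and 8.78 ± 0.17 for the Myc group. Whether that probe set detects the introduced c-myc was not tested, so this lower level cannot decide if the label is right. Directions for this group rest on the label. For Src the means were 7.08 ± 0.02 in its own group and 7.04 ± 0.19 in control, and Hras had 0 probe sets of its own. Control array 3 stood apart: the mean level of 11 kidney tubule markers was 9.29 in it, 5.72 and 5.83 in the other controls and 5.74 to 5.93 in the line arrays. The secretory gene Pbsn, which encodes probasin, was at group means of 3.10 to 3.22 in the lines and 3.07 in control, so this marker of mature luminal cells was below the median of all gene values in every group.

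Upstream regions are shown for the members that had an entry in the RefSeq promoter table (GRCm38.p6). Krt19, which also fell in the Ras lines, had no entry there. The members shown are Krt7, Krt8 and Krt18, each with the 250 bases before its annotated start, written 5′ to 3′ on the gene's strand. Krt7 lies on the + strand at chr15:101412153-101412402, Krt8 on the - strand at chr15:102004343-102004592 and Krt18 on the + strand at chr15:102027966-102028215. Capitals mark CACCTG, an E-box of the kind that the repressors of the SNAI and ZEB families bind.
Krt7: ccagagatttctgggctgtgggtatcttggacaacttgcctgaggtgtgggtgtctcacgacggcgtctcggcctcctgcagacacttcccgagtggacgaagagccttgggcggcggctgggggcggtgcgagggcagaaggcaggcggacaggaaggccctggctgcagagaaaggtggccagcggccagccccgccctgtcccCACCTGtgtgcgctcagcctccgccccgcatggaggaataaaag
Krt8: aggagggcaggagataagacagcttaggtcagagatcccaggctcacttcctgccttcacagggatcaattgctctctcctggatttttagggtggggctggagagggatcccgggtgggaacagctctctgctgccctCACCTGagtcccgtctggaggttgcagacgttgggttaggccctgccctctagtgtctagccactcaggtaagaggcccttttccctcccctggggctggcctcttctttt
Krt18: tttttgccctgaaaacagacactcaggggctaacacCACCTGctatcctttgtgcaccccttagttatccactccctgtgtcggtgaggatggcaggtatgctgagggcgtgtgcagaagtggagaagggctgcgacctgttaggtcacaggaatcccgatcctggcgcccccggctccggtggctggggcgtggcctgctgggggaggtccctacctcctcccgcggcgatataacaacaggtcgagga
CACCTG was searched on both strands, after the levels of these factors had been seen. It occurred 1 time in each of the 3 windows, from base -44 to -39 of Krt7, -111 to -106 of Krt8 and -214 to -209 of Krt18, counted from -1 just before the start. Of 32851 promoter windows of this length, 17.2% held it. The GC box GGGCGG had 4 matches in Krt7 and 0 in Krt8 and Krt18, and 32.7% of windows held it. The AP-1 motif TGANTCA had 0 matches in the 3 windows and was held by 6.75% of windows. The first intron of Krt18, where the AP-1 and Ets elements of the human gene lie, was not searched. These are matches of letters and show no binding. Krt8 and Krt18 are neighbours on chromosome 15, facing away from each other, with 2 annotated genes starting between them, of which 0 are protein coding. Krt7 lies on the same chromosome and Krt19 on chromosome 11.

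The 4 keratins were far lower in the Ras lines than in control, while none of the 4 passed the test in NeuT. In Ras, 4 of 4 fell at an adjusted p under 0.05 (limma, Benjamini-Hochberg over all genes), where 14.2% of all genes fell. All 4 also passed with a 2-fold minimum, as 3.98% of genes did in this direction. In the arrays labelled Myc 2 of 4 fell, against 12.7% of all genes, and in Src 2 of 4 fell, against 12.2%. In either direction, 28.6% of all genes passed in Myc, 27.4% in Ras and 26.4% in Src. In NeuT 0 of 4 passed in either direction by limma, against 26.8% of all genes. Krt19 alone of the 4 had an unadjusted limma p-value below that threshold there. Median log2 changes of the 4 were -0.60 in Myc, -0.01 in NeuT, -5.07 in Ras and -1.34 in Src, where the medians over all genes were 0.03, 0.02, 0.02 and 0.06. In these bulk samples, fewer cells that make keratin and less keratin RNA per cell cannot be told apart.

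**Figure D1:**
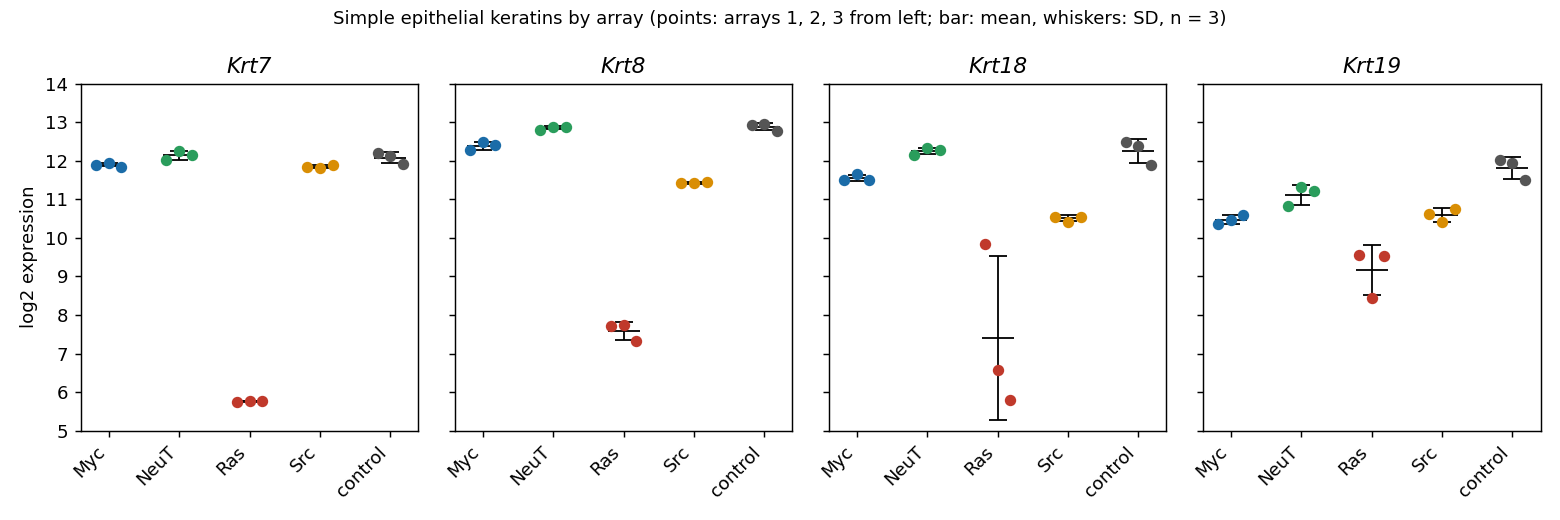
Log2 expression (vertical axis) of each keratin in the 15 arrays, by group, with a point per array, a bar at the mean and whiskers of 1 SD (n = 3). Krt7 and Krt8 in the 3 Ras arrays lie far below every other array, Krt18 in the Ras arrays spreads from 5.80 to 9.83, and Krt19 in the Ras arrays lies at 8.43 to 9.55. Levels are to be read within a panel, since each gene has its own probe set.

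Krt7, the type II keratin of ducts and glands, separated the Ras lines from all other arrays most cleanly. It read 5.75, 5.76 and 5.77 in the Ras arrays and 12.20, 12.13 and 11.91 in the control arrays. The Ras arrays lay together below the median of all gene values, and the controls lay more than 6 log2 units above them. The log2 fold change was -6.32 ± 0.08 (SE, adjusted p = 4.22e-15 by limma), the 2nd lowest of 19938 genes, or 79.8-fold lower. Krt7 had the largest F statistic of all genes for differences among the 4 oncogene groups (adjusted p = 4.92e-15).

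In the other lines Krt7 stayed close to control. It read 11.90, 11.93 and 11.85 in the arrays labelled Myc. The NeuT arrays read 12.01, 12.24 and 12.16, and the Src arrays 11.85, 11.80 and 11.89. All of these groups overlapped their neighbours in the order NeuT, control, Myc, Src. The log2 fold changes against control were -0.18 (95% interval -0.36 to 0.00, adjusted p = 0.126) for Myc, 0.06 (-0.12 to 0.24, adjusted p = 0.692) for NeuT and -0.23 (-0.41 to -0.05, adjusted p = 0.0588) for Src. Without control array 3, the lowest control, the values were -0.27 (adjusted p = 0.0228) for Myc and -0.32 (adjusted p = 0.0113) for Src.

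Krt8, the type II partner of the luminal pair, was graded across the groups. It read 7.72, 7.73 and 7.32 in the Ras arrays and 12.92, 12.95 and 12.78 in control. The log2 fold change was -5.29 ± 0.10 (adjusted p = 1.31e-13), the 12th lowest of all genes, or 39.2-fold lower. Unlike Krt7, Krt8 in the Ras lines stayed above the median of all gene values.

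Krt8 fell in 2 further groups. The Src arrays read 11.42, 11.41 and 11.44 and all lay below every control array (log2 fold change -1.46 ± 0.10, adjusted p = 1.89e-07, 2.75-fold lower). The arrays labelled Myc read 12.28, 12.48 and 12.40 and also lay below the controls (log2 fold change -0.50 ± 0.10, adjusted p = 0.00166, 1.41-fold lower). NeuT arrays, at 12.81, 12.87 and 12.88, overlapped the controls, and the interval of that difference was -0.25 to 0.19 (log2). The order was thus control and NeuT, which overlapped, then Myc, Src and Ras, each step without overlap.

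Krt18, the type I partner of Krt8, followed the same order from Myc through Src to Ras but had an uneven Ras group. It read 9.83 in Ras array 1, 6.58 in array 2 and 5.80 in array 3, against 12.48, 12.37 and 11.90 in control. All Ras arrays lay below all controls, and Ras array 1 stood far above the other Ras arrays. The log2 fold change was -4.84 ± 0.68 (adjusted p = 7.5e-05, 28.7-fold lower), and it was -6.06 (adjusted p = 2.53e-10) without Ras array 1 and -4.04 (adjusted p = 0.000233) without Ras array 3. Krt8 in Ras array 1 was not set apart in this way, as its value there, 7.72, was close to that of array 2.

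The spread of Krt18 in Ras also set the error used for the other groups, since all groups share 1 estimate. Its SD was 2.14 in Ras, 0.08 in Myc, 0.09 in NeuT, 0.08 in Src and 0.31 in control. The Src arrays read 10.55, 10.42 and 10.55 and lay below all controls, with a log2 fold change of -1.74 ± 0.68 that did not pass (adjusted p = 0.0734). In a fit without the Ras arrays, chosen after seeing the data, the same change had an SE of 0.13 and adjusted p = 1.57e-06, where 13.4% of all genes were lower in Src. The arrays labelled Myc read 11.51, 11.65 and 11.51, also below all controls (log2 fold change -0.69, adjusted p = 0.514, and 0.00116 without the Ras arrays, where 13.8% of genes were lower in Myc). NeuT arrays, at 12.16, 12.33 and 12.27, overlapped control, with an interval of -0.27 to 0.28 in the fit without Ras.

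**Figure D2:**
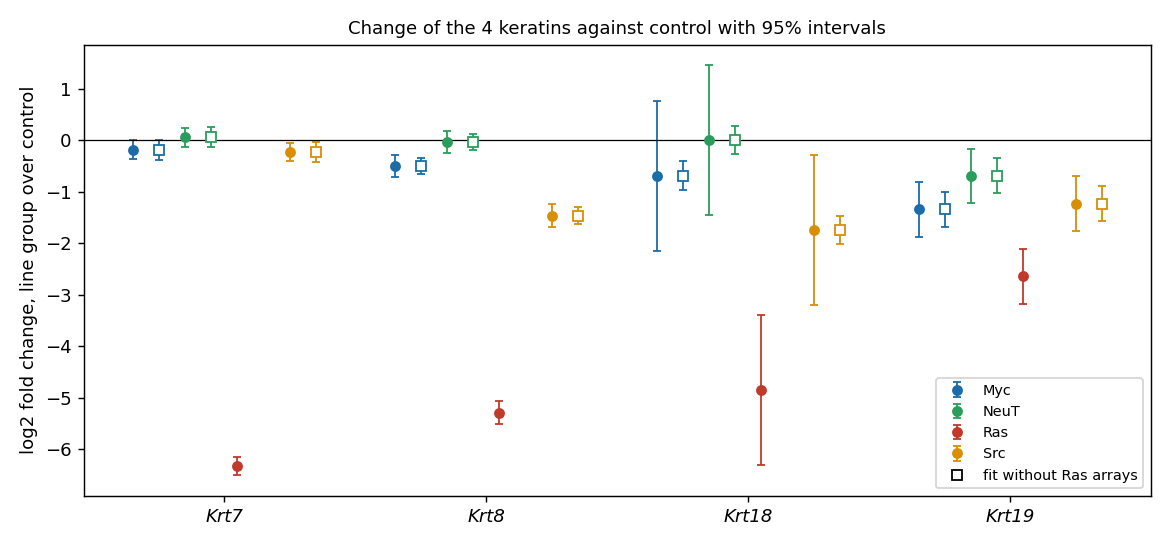
Log2 fold change of each line group over control (vertical axis) for the 4 keratins, with 95% intervals from limma. Filled circles are from the fit of all 15 arrays and open squares from the fit without the Ras arrays. The intervals of Krt18 in Myc, NeuT and Src narrow in the second fit, while the changes themselves, -0.69, 0.01 and -1.74, stay as they were.

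Krt19, the short type I keratin, had log2 changes from control of -2.64 in Ras, -1.34 in Myc, -1.23 in Src and -0.69 in NeuT, of which NeuT did not pass. It read 9.55, 8.43 and 9.53 in the Ras arrays and 12.01, 11.94 and 11.49 in control. The Ras arrays lay below all arrays of the other groups (log2 fold change -2.64 ± 0.25, adjusted p = 1.78e-06, 6.24-fold lower). In this group Krt19 stayed well above the median of all gene values.

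The arrays labelled Myc read 10.37, 10.46 and 10.59 for Krt19 (log2 fold change -1.34 ± 0.25, adjusted p = 0.000792, 2.53-fold lower). The Src arrays read 10.61, 10.40 and 10.76 (log2 fold change -1.23 ± 0.25, adjusted p = 0.00218, 2.34-fold lower). Both groups lay below all controls and overlapped each other, with a Myc minus Src difference of -0.11 (interval -0.65 to 0.42). The NeuT arrays, at 10.83, 11.32 and 11.22, lay between these groups and control, and their log2 fold change of -0.69 ± 0.25 missed the threshold (adjusted p = 0.0538). It passed without control array 3 (-0.85, adjusted p = 0.0219), and also without each Ras array (adjusted p = 0.0444, 0.00335 and 0.0449 without arrays 1, 2 and 3).

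Control array 3 was the lowest control for all 4 keratins. It was lower than the mean of the other controls by a log2 difference of -0.26 for Krt7, -0.16 for Krt8, -0.52 for Krt18 and -0.48 for Krt19. In this array 9 of 11 kidney tubule markers and 5 of 6 endothelial markers were at least 2-fold higher than in the other controls. As background, 685 of the 19938 genes stood 2-fold or more above control arrays 1 and 2 there, and 2 stood as far below. Without control array 3, the Ras changes were between -2.80 for Krt19 and -6.41 for Krt7.

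The mean of the 4 line groups was lower than control for all 4 keratins, where 13.4% of all genes fell. Log2 changes of this mean were -1.67 for Krt7, -1.82 for Krt8, -1.82 for Krt18 and -1.48 for Krt19. Ras had the largest fall for each of the 4 keratins. For Krt7 the mean is carried by the Ras group, since the other 3 groups did not pass. For Krt18 the other 3 groups did not pass either in the fit of all arrays, while Myc and Src did in the fit without Ras. For the mean of the line groups, Krt18 had adjusted p = 0.0194 by limma. This became 0.0732 without control array 1, 0.0654 without control array 2 and 0.0503 with a trended robust variance.

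Comparisons among oncogenes share the culture medium, and 6 pairs were compared. Every pair with Ras had 4 of 4 keratins lower in Ras at an adjusted p under 0.05. Over all genes, 16.6%, 16.5% and 14.1% were lower in Ras in this way than in Myc, NeuT and Src. For NeuT against Ras the log2 differences were 6.38 ± 0.08 for Krt7, 5.26 ± 0.10 for Krt8, 4.85 ± 0.68 for Krt18 and 1.95 ± 0.25 for Krt19. The smallest of the 12 differences with Ras was Krt19 in the arrays labelled Myc against Ras, at 1.30 ± 0.25 (adjusted p = 0.00104).

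Krt8 separated the groups other than Ras from each other. Krt8 was higher in NeuT than in Src by 1.43 ± 0.10 (log2, adjusted p = 2.42e-07), higher in Myc than in Src by 0.96 ± 0.10 (adjusted p = 1.38e-05), and lower in Myc than in NeuT (-0.47 ± 0.10, adjusted p = 0.00557). Krt18 had differences of 1.75 for NeuT against Src, 1.05 for Myc against Src and -0.70 for Myc against NeuT, of which 0 passed in the fit of all arrays (adjusted p = 0.09, 0.338 and 0.674). In the fit without Ras, all 3 passed (adjusted p = 1.56e-06, 0.000106 and 0.00245). Krt19 was at 0.53 for NeuT against Src, -0.11 for Myc against Src and -0.65 for Myc against NeuT (adjusted p = 0.16, 0.82 and 0.106). Krt7 was higher in NeuT than in Src by 0.29 ± 0.08 (adjusted p = 0.0248), a call that was lost without NeuT array 2, NeuT array 3, Src array 1 or Src array 2 (adjusted p = 0.114, 0.0793, 0.0617 and 0.0865). The members that passed were 1 of 4, lower in Myc than in NeuT, 1 of 4, higher in Myc than in Src, and 2 of 4, higher in NeuT than in Src, beside 7.95%, 11.4% and 12.2% of all genes in those directions. In the fit without Ras the same shares of all genes were 8.81%, 12.4% and 13.3%. For differences among the 4 oncogene groups by limma's F test, 4 of 4 keratins passed, beside 42.1% of all genes.

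The other keratins were set beside these. The lists below are read against all genes in the same direction: 15.9% rose in Myc, 15.2% in NeuT, 13.3% in Ras and 14.2% in Src, and 11.6% fell in NeuT. Of 4 further keratin genes, Krt20, Krt23, Krt80 and Krt222, 2 fell and 0 rose in Ras. Krt23 was at 6.03 ± 0.11 in Ras and 6.82 ± 0.15 in control (log2 fold change -0.78 ± 0.20, adjusted p = 0.00761 by limma). It fell further in Myc (-1.39) and NeuT (-1.68). Its means in Myc, NeuT and Ras, 5.42, 5.14 and 6.03, lie under the median of all gene values, so these sizes are unsure. Krt80 was higher than control in the arrays labelled Myc (0.67, adjusted p = 0.00382) and lower in Ras (-0.64, adjusted p = 0.00582) and Src (-0.72, adjusted p = 0.00328). Krt20 and Krt222 lay below the median of all gene values in every group.

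The basal and activated keratins, those of the outer prostate layer and of wounded or cultured epithelium, fell in 7 of 7 members in Ras and in 6 of 7 in NeuT. Krt6b, counted as lower in Ras (-0.38 ± 0.14, adjusted p = 0.0492 by limma) and higher in Src, had group means of 4.87 to 5.89. It thus lay under the median of all gene values in every group. In NeuT the basal Krt5 was at a log2 change of -5.26 ± 0.14 and Krt14 at -3.42 ± 0.15, while Krt8 there was at -0.03 ± 0.10. In Src, Krt5 rose (1.23 ± 0.14, adjusted p = 2.37e-05) where Krt8 fell, and 3 of 7 basal or activated keratins rose and 2 fell. Krt6a, a keratin of activated epithelium, moved in the same directions as Krt5, at -4.31 ± 0.21 in NeuT, -4.40 ± 0.21 in Ras and 0.77 ± 0.21 in Src (adjusted p = 0.015 by limma). Krt17 fell in all 4 line groups, from -0.72 in Src to -4.39 in Ras. Krt5, Krt6a and Krt17 averaged 5.70, 5.94 and 5.73 in NeuT and 5.59, 5.85 and 5.50 in Ras. These means lie under the median of all gene values, so the sizes there, and how alike they are, are unsure. In the arrays labelled Myc 5 of 7 fell and 1 rose. Medians of the 7 were -1.55 in Myc, -4.16 in NeuT, -4.39 in Ras and 0.64 in Src. Of 9 suprabasal and stratified keratins, Krt4 fell in every line group (-2.50 to -2.82). In these comparisons 1 of 9 was the most that fell. The line group means of Krt4, 5.15 to 5.46, lie under the median of all gene values, so these sizes are unsure. Of the 9, 1 rose in Myc, 0 in NeuT, 1 in Ras and 1 in Src. Krt13 rose in Ras (0.84 ± 0.18, adjusted p = 0.00308 by limma) and Src (0.60 ± 0.18, adjusted p = 0.0279), from 5.68 in control, also under that median.

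Of 13 other intermediate filament genes, 5 rose and 1 fell in Ras. Vim, which encodes the mesenchymal filament protein vimentin, was at 12.11 in Ras against 9.12 in control (log2 fold change 2.99 ± 0.09, adjusted p = 2.21e-11). It also rose in NeuT (1.67 ± 0.09), where Krt8 and Krt18 were near control, and fell in the arrays labelled Myc (-1.57 ± 0.09). Nefm, a neurofilament subunit, was at 10.17 in Ras against 4.39 in control (log2 fold change 5.77 ± 0.25, adjusted p = 4.92e-10). Lmna, which encodes the nuclear lamin A, rose in NeuT (1.12) and in the arrays labelled Myc (0.68).

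**Figure D3:**
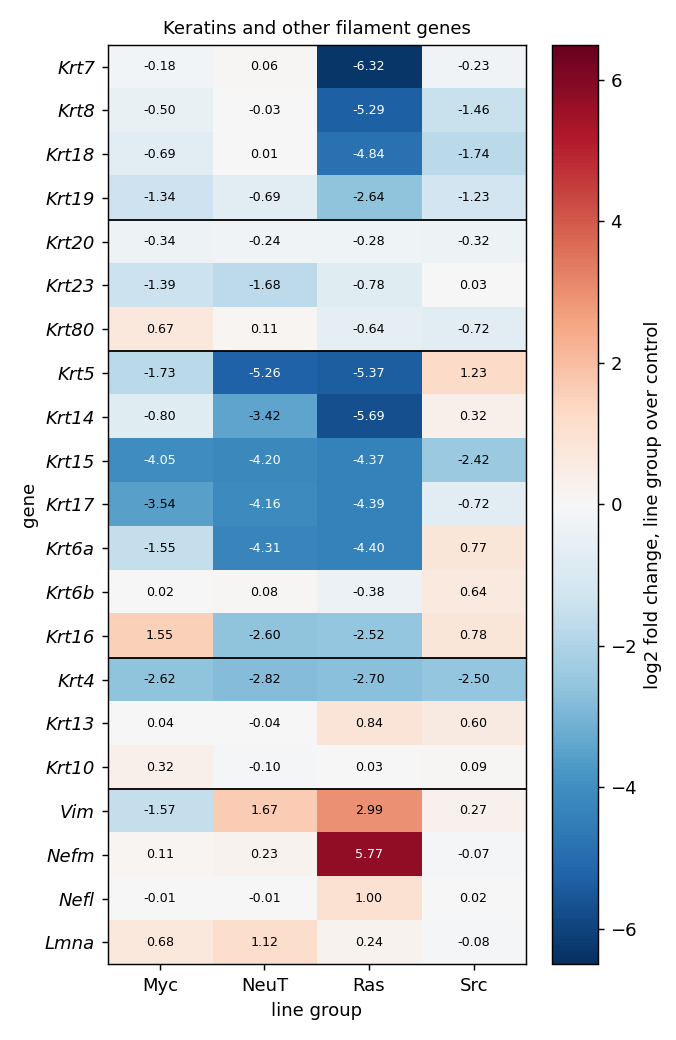
Log2 fold change over control (colour and printed value) for keratins and other filament genes (rows) in the 4 line groups (columns). Lines divide, from the top, the 4 simple keratins, Krt20 with Krt23 and Krt80, basal and activated keratins, stratified keratins and other filament genes. The 4 simple keratins are at -6.32 to -2.64 in Ras, while Krt5 is at -5.26 in NeuT and -5.37 in Ras. The Krt5 means there, 5.70 in NeuT and 5.59 in Ras, lie under the median of all gene values.

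Genes that anchor keratin filaments were also lower in Ras, in 8 of 12 members, with 1 higher and a median of -0.71. Jup, the desmosome and adherens junction protein plakoglobin, was at -2.85 ± 0.15 in Ras and -0.33 ± 0.15 in Src (adjusted p = 0.11). Pkp2, a desmosomal plaque protein, fell most in Src (-2.13 ± 0.11, adjusted p = 1.15e-08). Fam83h, a scaffold that acts on keratin filaments, fell in Ras (-0.77 ± 0.10) and rose in NeuT (0.70 ± 0.10). Dst, a linker of filaments to hemidesmosomes, rose in Ras (0.37 ± 0.11) and fell in Src (-1.06 ± 0.11).

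Regulators of the epithelial state fell in 11 of 14 measured members in Ras, and 0 rose (median -1.03). The splicing factor Esrp1 was at 4.81 in Ras against 9.61 in control (log2 fold change -4.80 ± 0.15). The transcription factors Grhl2 (-2.69 ± 0.14) and Ehf (-3.23 ± 0.14) fell there as well. The Ras means of these genes, 4.81, 5.59 and 6.02, lie under the median of all gene values, so these sizes are unsure. Trp63, the regulator of basal epithelial cells, had like changes in Myc (-1.80), NeuT (-1.66) and Ras (-1.65), each ± 0.12, and rose in Src (1.73 ± 0.12), as Krt5 did. Mesenchymal transition regulators rose in 4 of 7 in Ras. Snai2 was not among them (0.10 ± 0.13, adjusted p = 0.654 by limma). It rose in Src (1.52 ± 0.13) and fell in the arrays labelled Myc (-2.71 ± 0.13) and in NeuT (-1.40 ± 0.13). The Snai2 mean in Myc, 5.95, lies under the median of all gene values, so that size is unsure. Zeb1, a repressor of epithelial genes, was at 8.76 ± 0.22 in Ras and 6.51 ± 0.25 in control (2.25 ± 0.13, adjusted p = 8.59e-09). Zeb2 was at 8.29 ± 0.06 in Ras and 6.24 ± 0.94 in control (2.05 ± 0.31, adjusted p = 0.000139), with control array 3 the highest control at 7.32. Twist1 rose in NeuT (1.84 ± 0.13), Ras (2.38 ± 0.13) and Src (1.50 ± 0.13), from 5.82 in control, which is under that median.

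AP-1 and Ets factors moved both ways in Ras, with 4 of 16 higher and 5 lower. Fosl1, an AP-1 subunit, rose in all line groups, by 1.56 in Myc, 2.42 in NeuT, 1.62 in Ras and 1.66 in Src (log2). Etv1 rose in Ras (3.82 ± 0.37), where it was at 9.90 ± 0.27 against 6.08 ± 1.05 in control with control array 3 the highest control at 7.27, and Ets2 (-1.93 ± 0.16) and Jun (-0.55 ± 0.11) fell there. The list of prostate luminal genes also holds general epithelial adhesion and junction genes, among them Cdh1, Epcam, Cldn3, Cldn4 and Cldn7. Of this list, 10 of 13 measured members fell in Ras (median -3.13) and 0 rose. Cdh1, which encodes E-cadherin, was at -5.25 ± 0.13 and Epcam, an epithelial adhesion molecule, at -5.23 ± 0.08. Their Ras means, 5.91 and 4.44, lie under the median of all gene values, so the sizes are unsure. Tmprss2, a luminal surface protease, fell in all 4 line groups, from -2.85 in Src to -3.14 in Myc. Its line group means, 5.47 to 5.77, lie under the median of all gene values, so these sizes are unsure. In Src, where Krt8 fell, 7 of 13 genes of the luminal list fell and 1, Psca, rose.

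The fibroblast marker list averaged 6.32 to 6.75 in the Ras arrays and 6.22 to 6.41 in the controls, with 2 of 7 higher in Ras and 1 lower. Dcn, which encodes the matrix proteoglycan decorin, was at 8.17 ± 0.73 in Ras and 7.04 ± 0.32 in control. Col1a1, the main fibrillar collagen gene, was at 7.05 ± 0.10 in Ras and 7.14 ± 0.03 in control. Smooth muscle markers were lower in every line group, with array means over 5 genes of 5.86 to 5.98 in Myc, 5.82 to 5.93 in NeuT, 5.77 to 6.59 in Ras and 6.37 to 6.46 in Src, against 6.95 to 7.32 in control. In each line group 2 of these 5 passed as lower than control and 0 as higher, and 4 of 5 did so for the mean of the line groups. Acta2, which encodes smooth muscle actin, was at 6.71 ± 0.72 in Ras and 10.18 ± 0.33 in control (log2 fold change -3.47 ± 0.26, adjusted p = 1.99e-07). It also fell in Myc (-4.07 ± 0.26), NeuT (-3.89 ± 0.26) and Src (-1.58 ± 0.26). The Acta2 means in Myc and NeuT, 6.11 and 6.29, lie under the median of all gene values, so those sizes are unsure. The 4 bladder and urethral markers averaged 5.91 to 6.12 in Myc, 5.97 to 5.98 in NeuT, 5.96 to 6.12 in Ras and 6.46 to 6.75 in Src, against 6.91 to 7.07 in control. Of these 4, only Upk1b, which encodes a uroplakin, passed, at 4.91 ± 0.32 in Ras and 8.74 ± 0.38 in control, with log2 changes of -3.79 in Myc, -4.04 in NeuT, -3.83 in Ras and -1.86 in Src. The part of other cells in the keratin levels was not tested.

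Genes with the most similar profile were found by the root mean square difference from a member over the 15 arrays, after each gene was centred on its own mean. For Krt7 the nearest was S100a14, a calcium-binding S100 protein, at 0.27 (log2), followed by Epcam (0.54), Esrp1 (0.62), Bst1 (0.64) and Serpinb5 (0.66), which encodes maspin. For Krt8 the nearest were Wfdc2 (0.39), Fermt1 (0.42), Epcam (0.45), Rnf130 (0.47) and Esrp1 (0.48). Krt8 was the gene nearest to Krt18 (0.78), ahead of Fgfbp1 (0.86), Mia2 (0.86), Rnf130 (0.88) and Stk39 (0.89), while Krt18 was the 24th nearest to Krt8.

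Krt19 had other neighbours: Patj (0.29), a polarity scaffold, Stap2 (0.31), Cdcp1 (0.31), Spint2 (0.32), a protease inhibitor, and Nipal2 (0.32). The group means of these 5 genes were below control in all 4 line groups. Spint2 was at 7.90 in Myc, 8.20 in NeuT, 6.09 in Ras, 8.08 in Src and 9.08 in control. Among the members, Krt7 and Krt8 were 0.73 apart, and Krt7 and Krt19 were 1.82 apart.

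**Figure D4:**
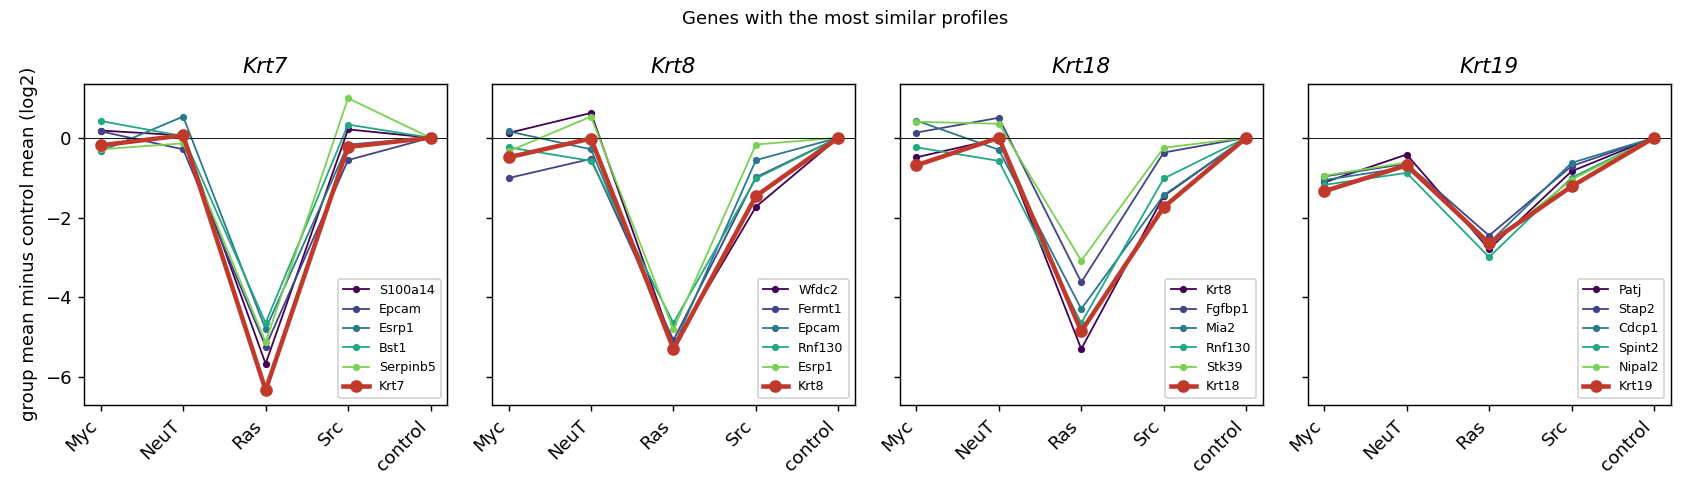
Group mean minus control mean (log2, vertical axis) for each keratin (thick red line) and the 5 genes nearest to it (thin lines) in the 4 line groups and control. The genes near Krt7 dip in Ras; elsewhere they lie closer to control, though Serpinb5 is at 10.58 in Src against 9.59 in control. Those near Krt19 lie below control in all 4 line groups.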

How the data were processed

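Per the labels, Trizol-extracted total RNA was amplified by a NuGen Pico kit and carried a biotin label. The deposited values are log2 expression normalized across arrays by the authors, and the submitters' processing notes name RMA and Affymetrix Expression Console 1.1. The background setting, the summary level and the build: not given in the sources used here. Of 35556 probe sets, 21789 were assigned to 1 gene and used, and the brightest by mean was taken for each of 19938 genes. With limma 3.58.1 (R 4.3.3), 1 linear model held the 5 group means, with no filter on low values. Two-sided p-values were adjusted (Benjamini-Hochberg) across the genes, and a gene passed under 0.05. Errors are SD for levels and SE for changes. Genes named from the lists had the smallest adjusted p (up to 4 a list) for differences among oncogenes or for the pooled comparison, and Pbsn, Dcn, Col1a1, Acta2 and Upk1b were named after their values were seen. Like genes spanned at least 1 (log2) between group means, with predicted genes passed over. The members and lists were chosen with earlier results of these data known. The fits were run on simulated data in which each gene had the same spread in every group. Unequal spreads, as for Krt18 in Ras, were therefore not tested by it. Figures were drawn with matplotlib 3.10.9. Arrays had 0 identical pairs. Alternatives tried were other normalizations, removal of dim genes, other handling of probe sets, another variance model, array weights, a replicate block, a 2-fold minimum, fits of only the groups compared and leaving out arrays.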

Additional observations from a re-analysis of the deposited data

How the results depend on the processing

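The comparisons of Ras with each other group kept 4 of 4 keratins past the threshold under every alternative run, in all 416 recomputed values. The sizes for Krt18 moved with the Ras arrays left out, from -6.06 to -4.04 (log2) against control, and to -3.80 with array weights. In the 6 comparisons of 2 groups without Ras, 37 of 162 recomputed counts of members that passed moved by over 1.5 times. For Myc against control (2 of 4) the count was 1 with a 2-fold minimum, 3 with array weights, with only the groups compared and without the Ras arrays, and 4 without control array 3 and Ras array 1, and 2 to 3 with 1 array left out. For NeuT against control (0 of 4) it was 1, always Krt19, with quantile normalization, without dim genes, with array weights, with only the groups compared, without the Ras arrays, and without control array 3 and Ras array 1, and 0 to 1 with 1 array left out. For Src against control (2 of 4) it was 3 with quantile normalization, without dim genes, with only the groups compared and without the Ras arrays, 4 with array weights and without control array 3 and Ras array 1, and 2 to 3 with 1 array left out. For Myc against NeuT (1 of 4) it was 0 with a 2-fold minimum, 2 without dim genes, 3 with array weights, with only the groups compared and without the Ras arrays, 4 without control array 3 and Ras array 1, and 1 to 2 with 1 array left out. For Myc against Src (1 of 4) it was 0 with a 2-fold minimum, 2 with only the groups compared, without the Ras arrays, and without control array 3 and Ras array 1, and 1 to 2 with 1 array left out. For NeuT against Src (2 of 4) it was 1 with a 2-fold minimum, 3 without control array 3 and Ras array 1, 4 with array weights, with only the groups compared and without the Ras arrays, and 1 to 3 with 1 array left out. The cause of these moves was not tested. Changes of direction were found for NeuT against control alone, where the values lie near 0. Krt7 was at -0.03 without control array 3 and Ras array 1, and -0.03 to 0.12 with 1 array left out. Krt8 was at 0.02 with median centring. Krt18 was at -0.02 with quantile normalization, -0.12 with array weights and -0.17 without control array 3 and Ras array 1, and at -0.17 to 0.12 with 1 array left out. Deviations of same-numbered arrays of different groups correlated at -0.08 to 0.12 over 30 pairs. For differently numbered arrays the range was -0.13 to 0.12 over 60 pairs. Pairing by number was not evident from these ranges, and a shared batch or day was not tested. The replicate number as a replicate block changed no call, and Krt18 in Src against control stood at -1.74 with adjusted p = 0.0666 with it. The fits without the Ras arrays, and without both control array 3 and Ras array 1, were chosen after seeing the data. Signal over background was not measured, which limits the size of Krt7 in Ras.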

Other observations

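Within the Ras group, Krt18 was the gene with the 2nd largest excess of array 1 over the mean of arrays 2 and 3 (log2 difference 3.64). The genes around it in that order were chosen after their values were seen. U90926 read 9.96, 6.02 and 5.89 in Ras arrays 1, 2 and 3, and Bhlhb9 read 7.53, 4.50 and 4.28. The next was Cd24a, a luminal surface antigen, at 9.16, 5.88 and 8.33. Against the other Ras arrays, array 1 had 63 genes higher and 44 lower by 2-fold or more. Of the other keratins described here, Krt19 was at a log2 difference of 0.57, Krt8 at 0.19 and Krt7 at -0.01. Among the listed genes Psca was at 0.60, Krt14 at 0.58, Epcam at 0.03 and Cdh1 at -0.05, all below the median of all gene values in each Ras array.

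Krt19 was lowest in Ras array 2, at 8.43, and the log2 difference from the other Ras arrays was -1.12. In that array 58 genes were at least 2-fold higher and 177 at least 2-fold lower than in arrays 1 and 3. No label gives a source for these differences.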
